A study of Mus musculus with 14 samples.

Results

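The genes described here are 32 components and targets of the Notch pathway, chosen by symbol from the 46517 Ensembl genes of the expression table. They comprise 4 receptors, 5 ligands, 3 glycosyltransferases, 5 proteases, 4 nuclear cofactors, 2 cytoplasmic inhibitors and 9 targets, and each matched 1 row of the table. They were measured by RNA-seq in 14 untreated tumours from mouse lung, in models of small cell lung cancer (SCLC), whose cells carry neuroendocrine features. RPM tumours (n = 11) arose in Rb1 fl/fl; Trp53 fl/fl mice with a Cre-activated LSL-Myc T58A allele, and 9 of them were LSL/LSL and 2 (replicates 2 and 4) LSL/+. RPR2 tumours (n = 3) arose in Rb1 fl/fl; Trp53 fl/fl; p130 (Rbl2) fl/fl mice. In both models the tumours were started by an adenovirus with a Cgrp-Cre cassette, whose promoter directs Cre to neuroendocrine cells, so floxed Rb1 and Trp53 are shared by all 14. Tumours were macro-dissected from the lung, so a library holds tumour cells together with whatever lung and stroma came with them. The labels give no ages.

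A Notch receptor is switched on when a Delta or Jagged ligand on a neighbouring cell binds it. ADAM metalloproteases and then the gamma-secretase complex cut the receptor, and its freed intracellular domain joins RBPJ and a Mastermind cofactor to activate Hes and Hey repressor genes. In the lung the pathway holds back neuroendocrine fate, and in mouse SCLC cells with active Notch have been described as a slow-growing non-neuroendocrine population that expresses Hes1 and Rest.

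The RPM libraries were estimated at 17.4 to 20.1 M mapped reads and the RPR2 libraries at 21.3 to 23.1 M, and 12994 to 14129 genes reached 1 FPKM (fragments scaled for gene length and sequencing depth) in RPM and 13310 to 14974 in RPR2. Myc stood at 48.4 to 384 FPKM in RPM, against 4.68, 6.83 and 13.6 in RPR2. Rbl2, whose gene-level value does not isolate the floxed exons, ranged from 3.43 to 9.90 FPKM in RPM, against 3.58, 7.55 and 3.34 in RPR2. Rb1, floxed in all 14 and likewise read over the whole gene, was at 5.19 to 22.6 FPKM in RPM, against 39.4, 49.8 and 3.58 in RPR2. RPR2 replicate 3 stood apart from the other libraries. Its 9 neuroendocrine markers summed to 12.99 FPKM, against 201 to 1284 in RPM and 2329 and 3254 in RPR2 replicates 1 and 2, and its 6 alveolar type 2 markers summed to 49362, against 14.8 to 826 in RPM and 1155 and 1821 in the other RPR2 tumours. Against its label, RPR2 replicate 3 thus held almost no RNA of neuroendocrine markers, and results are given with and without it. In bulk tissue, fewer cells of a type and less RNA per cell cannot be told apart. The identifiers in the labels' descriptions begin with 1 number in 10 RPM libraries, with another in RPM replicate 9 and with another in all 3 RPR2 libraries, so that number and the model cannot be told apart.

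Of the 32 genes 31 reached 1 FPKM or more in 3 or more libraries and were tested with limma on log2(FPKM + 1). At a Benjamini-Hochberg adjusted p under 0.05 over all genes, 6 were higher and 12 lower in RPM than in RPR2, and 13 were not called. That is 19.4% higher and 38.7% lower, where over all 15719 genes tested 18.4% were higher, 22.8% lower and 41.2% called in either direction. The median difference was -0.38 over the Notch genes and -0.06 over all genes. Without RPR2 replicate 3 the counts were 4 higher (12.9%) and 10 lower (32.3%), against 16.4% and 27.4% of all genes, with 43.9% called either way. The same call was made with and without that library for 12 Notch genes, a count not made over all genes. Of the 12, those higher in RPM were Dlk2, Mfng, Rfng and Hes5, and those lower were Lfng, Adam10, Psen2, Ncstn, Maml2, Numb, Hes1 and Nrarp. In 9 genes the RPM and RPR2 values did not overlap, with RPM above in 3 and below in 6, where 24.7% of all genes tested had no overlap (11.1% RPM above and 13.6% RPM below). Against RPR2 replicates 1 and 2 alone, RPM lay above in 3 genes and below in 10, where 45.6% of all genes tested had no overlap (16.2% RPM above and 29.5% RPM below).

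**Figure D1:**
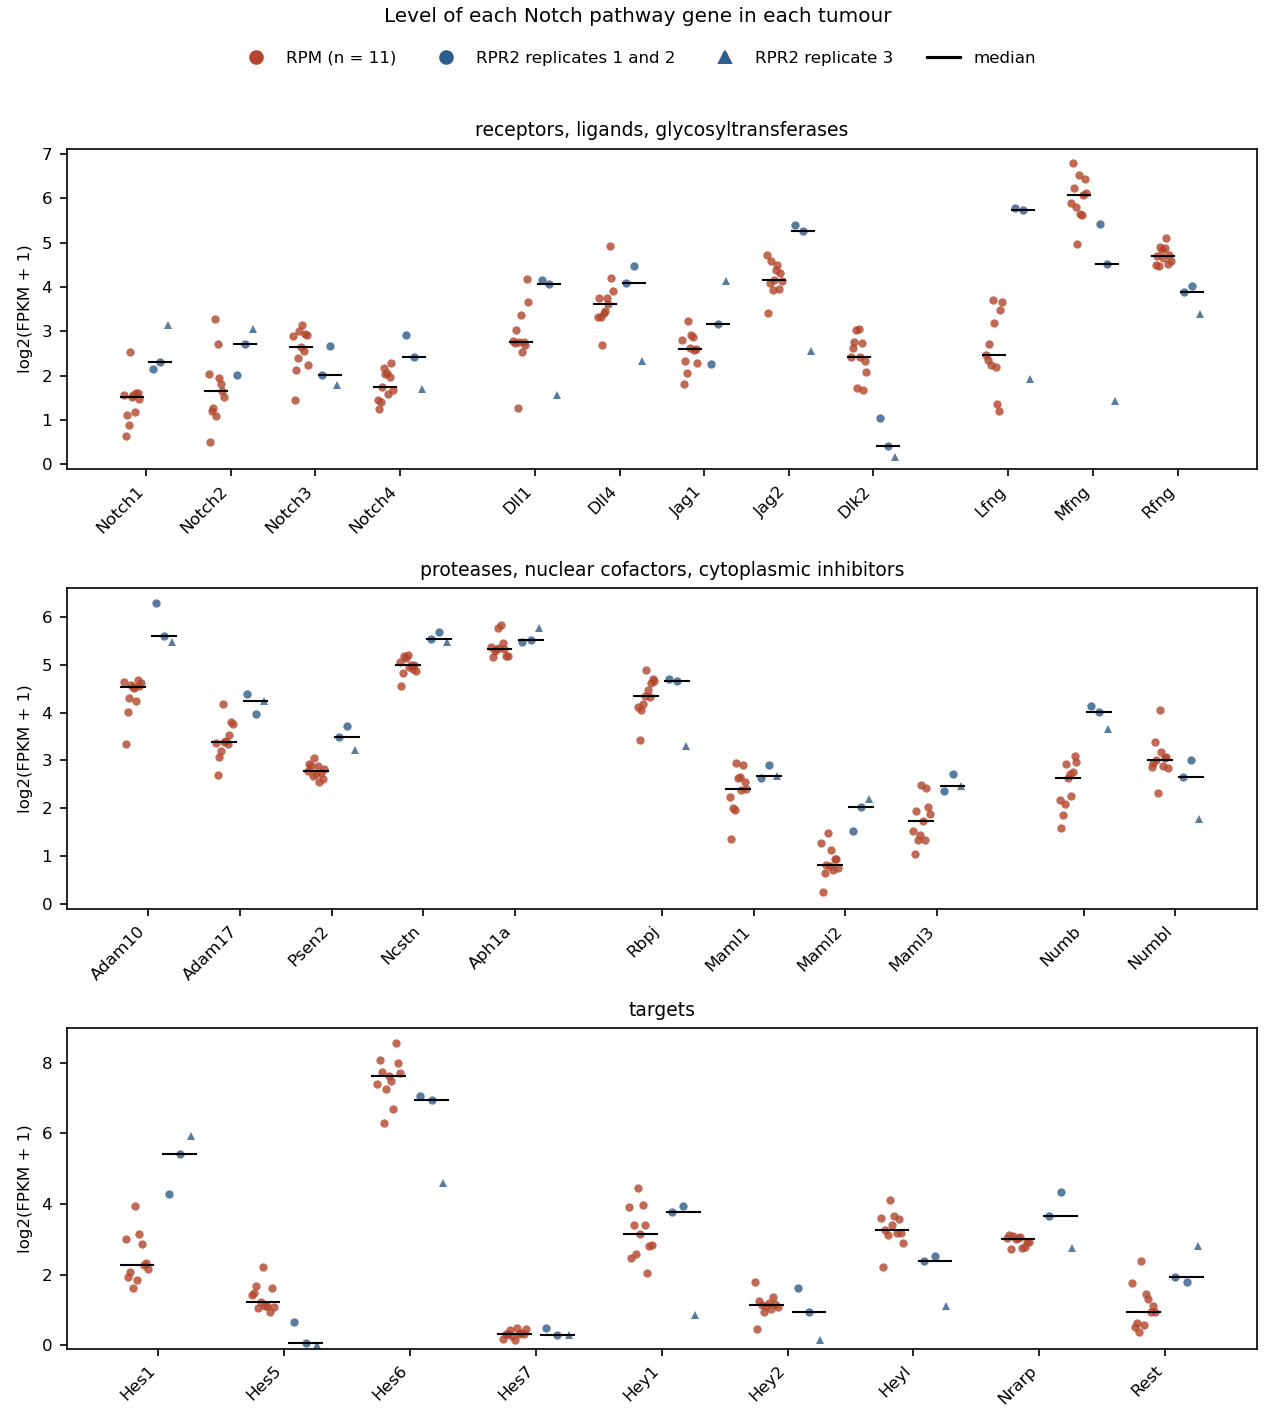
Levels of the 32 genes as log2(FPKM + 1) in each tumour, RPM (red, n = 11) left of RPR2 (blue, n = 3, replicate 3 as a triangle), with black lines at the medians. In Dlk2, Rfng and Hes5 all RPM points lie above all RPR2 points, and in Adam10, Psen2, Ncstn, Maml2, Numb and Hes1 all lie below.

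Among the receptors Notch1 was lower in RPM, and the order of the 4 receptors by median level differed between the models. Notch1 values ran from 0.57 to 4.82 FPKM in RPM with a median of 1.86, against 3.44, 3.93 and 7.90 in RPR2 replicates 1, 2 and 3. The ranges met in a single RPM tumour, replicate 5, which exceeded RPR2 replicates 1 and 2. The difference was -1.11 ± 0.32 (log2, SE; limma adjusted p = 0.0124), and -0.80 (adjusted p = 0.0788) without RPR2 replicate 3. Notch2 spanned 0.41 to 8.78 FPKM in RPM (median 2.15), against 3.07, 5.52 and 7.25 in RPR2, and these overlapping ranges gave no call (-0.86 ± 0.45, adjusted p = 0.142). Without RPM replicate 5, the highest RPM tumour, Notch2 was called lower (-1.02, adjusted p = 0.0417).

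Notch3, known from pericytes and vascular smooth muscle, had the highest median of the receptors per length in RPM, at 1.74, 5.26 and 7.80 FPKM (lowest, median and highest), against 3.03, 5.41 and 2.47 in RPR2. The ranges overlapped and Notch3 itself was not called (0.41 ± 0.31, adjusted p = 0.313). As a share of the summed FPKM of the 4 receptors it made up 29.1% to 48.7% in RPM (median 44.7%), against 18.8%, 28.2% and 12.4% in RPR2, with every RPM tumour above. The lowest RPM share, 29.1%, belonged to replicate 5 and lay close to the highest in RPR2. The RPM medians of Notch4 (2.36), Notch2 and Notch1 followed in that order, within ranges that overlap. In RPM replicate 5 Notch2 (8.78) exceeded Notch3. In RPR2 the order of the medians was Notch2 (5.52), Notch4 (4.36), Notch1 (3.93) and Notch3 (3.03), but the highest receptor was Notch4 in replicate 1, Notch2 in replicate 2 and Notch1 in replicate 3.

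Notch4, the receptor of endothelial cells, was at 1.36 to 3.87 FPKM in RPM, against 6.55, 4.36 and 2.24 in RPR2. RPR2 replicates 1 and 2 lay above the whole RPM range and replicate 3 within it. Notch4 was not called over all libraries (-0.56 ± 0.27, adjusted p = 0.113) and was lower in RPM without RPR2 replicate 3 (-0.88, adjusted p = 0.0185). The 8 endothelial markers summed to 30.7 to 88.4 FPKM in RPM, against 316, 394 and 59.4 in RPR2. Without Vwf, the largest term of that sum in RPR2 replicates 1 and 2, they came to 27.3 to 83.0 in RPM, against 78.5, 64.6 and 31.1. The 9 mural markers, of pericytes and smooth muscle, went the other way, at 185 to 394 FPKM in RPM against 62.3, 51.4 and 63.5 in RPR2. Of the 9, 8 were higher in RPM, where 18.4% of all genes were. Without RPR2 replicate 3, 6 were, where 16.4% of all genes were. None of these markers was at 0 in all libraries, and their part in the levels of Notch3, Notch4, Dll4 and the Hey genes was not tested.

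The activating ligands gave no call over all libraries. Jag2, a Jagged ligand, was at 9.58, 16.9 and 25.6 FPKM in RPM (lowest, median and highest), against 40.9, 37.6 and 4.90 in RPR2. Alone among the 32 genes it had RPR2 replicates 1 and 2 above, and replicate 3 below, the whole RPM range. Its difference was -0.21 ± 0.44 over all libraries (limma adjusted p = 0.736) and -1.13 ± 0.26 without replicate 3 (adjusted p = 0.00316). Dll1, the Delta-like ligand of many developing tissues, was also high in RPR2 replicates 1 and 2 and low in replicate 3, though all 3 lay inside the RPM range, at 1.42 to 17.1 FPKM in RPM, against 16.9, 15.8 and 1.96 in RPR2. It was not called (-0.38, adjusted p = 0.607), nor without replicate 3 (-1.23, adjusted p = 0.0555).

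Dll4, the Delta-like ligand of sprouting vessels, ran from 5.43 to 29.4 FPKM in RPM (median 11.2), against 16.0, 21.1 and 4.05 in RPR2. The difference was 0.04 (adjusted p = 0.951), and it turned to -0.61 without RPR2 replicate 3 (adjusted p = 0.221) and to -0.15 after scaling each library to TPM. Jag1 ran the opposite way from Jag2 in RPR2. It was at 2.50 to 8.47 FPKM in RPM (median 5.12), against 3.84, 7.95 and 16.5 in RPR2, with replicate 3 above every RPM tumour and no call (-0.63, adjusted p = 0.148). The difference was -1.09 and called without RPR2 replicate 1 (adjusted p = 0.0241), and -0.16 without RPR2 replicate 3 (adjusted p = 0.713). Jag2 made up 26.6% to 69.7% of the summed FPKM of Dll1, Dll4, Jag1 and Jag2 in RPM, which overlapped the 52.7%, 45.6% and 17.9% in RPR2.

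Dlk2 was the ligand that differed between the models. It encodes a Delta-like membrane protein without the domain that activating ligands use, and it is described as an inhibitor of Notch. Its level was 2.22, 4.38 and 7.36 FPKM in RPM (lowest, median and highest), against 1.07, 0.33 and 0.12 in RPR2. No RPM tumour overlapped an RPR2 tumour, and the difference of 1.90 ± 0.30 (limma adjusted p = 0.000177) was 1.71 without RPR2 replicate 3 (adjusted p = 0.00127). In RPR2 only replicate 1 reached 1 FPKM, so Dlk2 passed the filter for testing through RPM, its higher group. The gene lies at chr17:46297421-46303271 (plus strand, GRCm38).

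The 3 Fringe glycosyltransferases lengthen sugars on the receptor's EGF repeats and thereby change which ligands it answers. All 3 were called, where 41.2% of all genes were called in either direction, and they moved in different directions. Mfng (chr15:78755882-78773475, minus strand) was at 30.1 to 109.6 FPKM in RPM with a median of 66.1, against 41.6, 21.8 and 1.69 in RPR2. RPR2 replicate 1 lay inside the lower end of the RPM range and the other RPR2 tumours below it. Mfng was higher in RPM by 2.23 ± 0.57 (limma adjusted p = 0.0062), and without RPR2 replicate 3 the difference was 1.05 (adjusted p = 0.0316). Rfng was at 21.1 to 33.5 FPKM in RPM, against 13.9, 15.2 and 9.48 in RPR2, without overlap (0.95 ± 0.17, adjusted p = 0.00039).

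Lfng (chr5:140607320-140615545, plus strand) ran the other way in RPR2 replicates 1 and 2. It stood at 1.30, 4.52 and 12.1 FPKM in RPM (lowest, median and highest), against 54.1, 52.6 and 2.79 in RPR2. Replicates 1 and 2 exceeded every RPM tumour and replicate 3 lay within the RPM range. Lfng was lower in RPM by 1.88 on the log2 scale (SE 0.71, limma adjusted p = 0.0445), a call that held in 10 of 24 alternative limma fits. It was lost without RPM replicate 1, 2, 3, 4, 7, 8 or 9 and without RPR2 replicate 1 or 2, with adjusted p-values of up to 0.257, and the difference was -1.23 without RPR2 replicate 1 and -1.25 without replicate 2. Without RPR2 replicate 3 the difference was -3.16 ± 0.57 (adjusted p = 0.000537), the largest of the 31 genes in that fit. Mfng made up 43.1% to 79.1% of the summed FPKM of the 3 Fringe genes in RPM (median 69.3%), against 38.0%, 24.3% and 12.1% in RPR2, with all RPM tumours above.

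**Figure D2:**
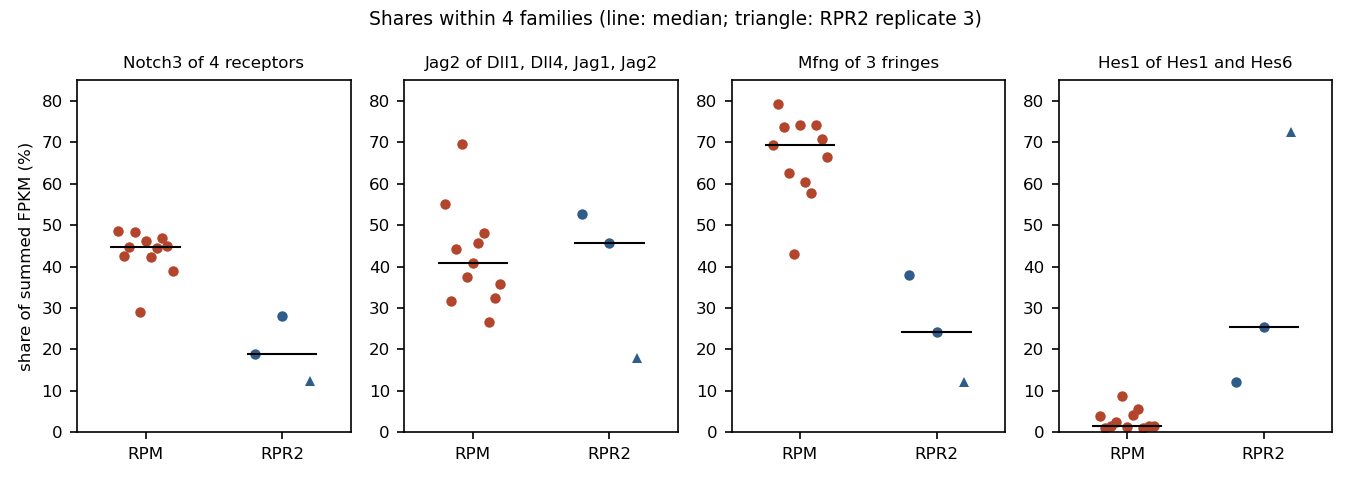
Share (percent of summed FPKM) of Notch3 among 4 receptors, Jag2 among Dll1, Dll4, Jag1 and Jag2, Mfng among 3 Fringe genes and Hes1 in the sum of Hes1 and Hes6, per tumour, RPM left of RPR2, with lines at the medians. The RPM tumours lie above RPR2 for Notch3 and Mfng (medians 44.7% and 69.3% in RPM), below it for Hes1 (median 1.65%), and overlap it for Jag2.

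Of the 5 protease genes 4 were lower in RPM and none was higher, where 22.8% of all genes were lower, and 3 were lower without RPR2 replicate 3, where 27.4% were. Adam10, which makes the first cut in a receptor that has bound its ligand, was at 9.10, 22.3 and 24.6 FPKM in RPM (lowest, median and highest), against 77.5, 47.8 and 43.3 in RPR2. The groups were well apart, and the difference was -1.43 ± 0.25 (limma adjusted p = 0.000444) with all libraries and -1.59 without RPR2 replicate 3. Adam17, the related sheddase, was at 5.52 to 17.1 FPKM in RPM, against 19.8, 14.6 and 17.9 in RPR2, with an overlap at RPR2 replicate 2. It was lower by 0.76 on the log2 scale in RPM (adjusted p = 0.0212), and its adjusted p was 0.0514 without RPR2 replicate 3 and at most 0.0952 over the alternative fits, where it was also lost without RPR2 replicate 1.

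Among the gamma-secretase subunits 2 of 3 were lower in RPM, where 22.8% of all genes were. Psen2, a catalytic presenilin, was at 4.83 to 7.32 FPKM in RPM, against 10.2, 12.2 and 8.37 in RPR2 (-0.70 ± 0.16, limma adjusted p = 0.00287). Ncstn, the substrate-receiving subunit nicastrin, was at 22.7 to 36.1 FPKM in RPM, against 45.8, 50.4 and 43.9 in RPR2 (-0.60 ± 0.14, adjusted p = 0.00296). Neither gene overlapped between the models. Aph1a, the scaffold subunit, was at 34.8 to 56.1 FPKM in RPM, against 43.8, 44.8 and 53.5 in RPR2, all 3 inside the RPM range (-0.20, adjusted p = 0.315).

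Rbpj, which encodes the DNA-binding partner of the Notch intracellular domain, was not called. Its FPKM ran from 9.69 to 28.6 in RPM (median 19.5), against 24.9, 24.4 and 8.83 in RPR2. The difference was 0.13 (limma adjusted p = 0.765), and it turned to -0.33 without RPR2 replicate 3 and to -0.06 after TPM scaling. Among the Mastermind co-activators Maml2 was at 0.19, 0.77 and 1.81 FPKM in RPM (lowest, median and highest), against 1.87, 3.10 and 3.59 in RPR2. The groups did not overlap, though RPR2 replicate 1 lay just above the highest RPM tumour (-1.03 ± 0.23, adjusted p = 0.00274, and -0.89, adjusted p = 0.0159, without RPR2 replicate 3). Maml3 was at 1.06 to 4.61 FPKM in RPM, against 4.15, 5.61 and 4.50 in RPR2, which overlap. Its call as lower (-0.77 ± 0.28, adjusted p = 0.0398) held in 8 of 23 alternative fits. It was lost without RPM replicate 1, 4, 5, 7 or 8 or on leaving out any RPR2 replicate, and the adjusted p without RPR2 replicate 3 was 0.0666. Maml1 overlapped and was not called, at 1.55 to 6.69 FPKM in RPM, against 5.24, 6.44 and 5.35 in RPR2 (-0.37, adjusted p = 0.314).

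Numb, an endocytic adaptor that removes Notch from the membrane, was lower in every RPM tumour than in any RPR2 tumour. It stood at 2.01, 5.17 and 7.54 FPKM in RPM (lowest, median and highest), against 16.5, 15.2 and 11.7 in RPR2 (-1.47 ± 0.30, limma adjusted p = 0.00115, and -1.61 without RPR2 replicate 3). Its paralogue Numbl was at 3.99 to 15.6 FPKM in RPM, against 5.25, 7.02 and 2.42 in RPR2, which overlap, with no call (0.58, adjusted p = 0.133, and 0.23 without RPR2 replicate 3).

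Of the 8 targets tested 3 were higher in RPM, 3 lower and 2 not called, against 18.4% higher and 22.8% lower of all genes. Without RPR2 replicate 3, 1 was higher and 2 lower, against 16.4% and 27.4% of all genes. The median difference of the targets was 0.28 with that library and -0.41 without it. Hes7, the ninth target, was too low to be tested. Hes1, the repressor gene most often read as a Notch output (chr16:30064384-30067796, plus strand), had the largest difference of the 31 genes over all libraries. It was at 2.05, 3.81 and 14.5 FPKM in RPM (lowest, median and highest), against 18.4, 41.5 and 60.5 in RPR2. Even the highest RPM tumour, replicate 5, lay below the lowest RPR2 tumour. The difference was -2.73 ± 0.44 (limma adjusted p = 0.000193), 6.66-fold lower on that scale, and -2.37 without RPR2 replicate 3 (adjusted p = 0.00166). Alveolar type 2 markers, at their highest in RPR2 replicate 3, where Hes1 was also highest, summed to more in every RPR2 library than in any RPM library, and the 3 airway club markers, each lower in RPM with and without RPR2 replicate 3, summed to 0.88 to 1522 FPKM in RPM, against 3464, 25526 and 839 in RPR2. The part of these markers in the Hes1 difference was not tested.

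Hes5 moved opposite to Hes1. Hes5 is a Notch-driven repressor gene of neural progenitors and lies at chr4:154960923-154962371 on the plus strand. Its level was low throughout, at 0.90, 1.31 and 3.62 FPKM in RPM (lowest, median and highest), against 0.58, 0.04 and 0 in RPR2. For this transcript 3 reads correspond to an FPKM of 0.102 to 0.135, so RPR2 replicates 2 and 3 lay under that floor, while RPR2 replicate 1 and all RPM tumours lay above it. The groups did not overlap, and Hes5 was higher in RPM by 1.11 ± 0.25 (limma adjusted p = 0.00281) and by 0.99 without RPR2 replicate 3 (adjusted p = 0.0148). No RPR2 library reached 1 FPKM, so Hes5 passed the filter for testing through RPM, its higher group, alone.

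Hes6, which encodes a Hes protein that counteracts Hes1 and marks neuronal and neuroendocrine differentiation, was the most abundant of the 32 genes per length in RPM. It was at 78.4, 197 and 375 FPKM in RPM (lowest, median and highest), against 134, 122 and 23.0 in RPR2. RPR2 replicates 1 and 2 lay inside the RPM range and replicate 3 below it. Its call as higher (1.34 ± 0.48, limma adjusted p = 0.0367) did not hold without RPR2 replicate 3 (0.53, adjusted p = 0.322), nor without RPM replicate 2, 3 or 10. In the sum of Hes1 and Hes6, Hes1 made up 1.01% to 8.73% in RPM (median 1.65%), against 12.1%, 25.4% and 72.4% in RPR2, with every RPM tumour below.

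Of the Hey repressor genes Heyl was higher in RPM, at 3.61, 8.64 and 16.5 FPKM (lowest, median and highest), against 4.18, 4.72 and 1.17 in RPR2. The ranges overlapped at the low end of RPM. Heyl is known from vascular smooth muscle, whose markers were also higher in RPM (above), and the difference of 1.29 ± 0.34 (limma adjusted p = 0.00749) was 0.85 without RPR2 replicate 3 (adjusted p = 0.0589). Hey1 was at 3.09 to 21.1 FPKM in RPM, against 12.7, 14.3 and 0.81 in RPR2, and Hey2 at 0.36 to 2.42 in RPM, against 2.05, 0.93 and 0.11 in RPR2. Neither was called (adjusted p = 0.683 and 0.54), and both differences, 0.33 and 0.23, turned negative without RPR2 replicate 3. Hes7, the repressor of the segmentation clock, was at 0.11 to 0.39 FPKM in RPM, against 0.41, 0.21 and 0.22 in RPR2.

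Nrarp, a target whose product destabilises the Notch intracellular domain, was nearly constant in RPM at 5.62, 7.08 and 7.68 FPKM (lowest, median and highest), against 11.6, 19.2 and 5.74 in RPR2. RPR2 replicates 1 and 2 exceeded all RPM tumours and replicate 3 lay within their range. Nrarp was lower in RPM (-0.63 ± 0.24, limma adjusted p = 0.044), a call that held in 7 of 24 alternative fits and was lost on leaving out any 1 RPM replicate other than replicate 2, with adjusted p-values of up to 0.408. It was also lost without RPR2 replicate 1 (-0.59) or 2 (-0.25), and without RPR2 replicate 3 the difference was -1.05 (adjusted p = 0.000497). Rest, which encodes the repressor of neuronal genes, was at 0.30, 0.93 and 4.21 FPKM in RPM, against 2.81, 2.45 and 5.96 in RPR2. Only the highest RPM tumour, replicate 5, overlapped the RPR2 values. Rest was lower in RPM by 1.08 on the log2 scale (adjusted p = 0.0297), and -0.77 without RPR2 replicate 3 was not called (adjusted p = 0.151). The call was also lost without RPR2 replicate 1, and with title stem as a random effect (-1.07, adjusted p = 0.0620), where RPM replicates 6 and 7 and RPM replicates 10 and 11 share a stem.

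**Figure D3:**
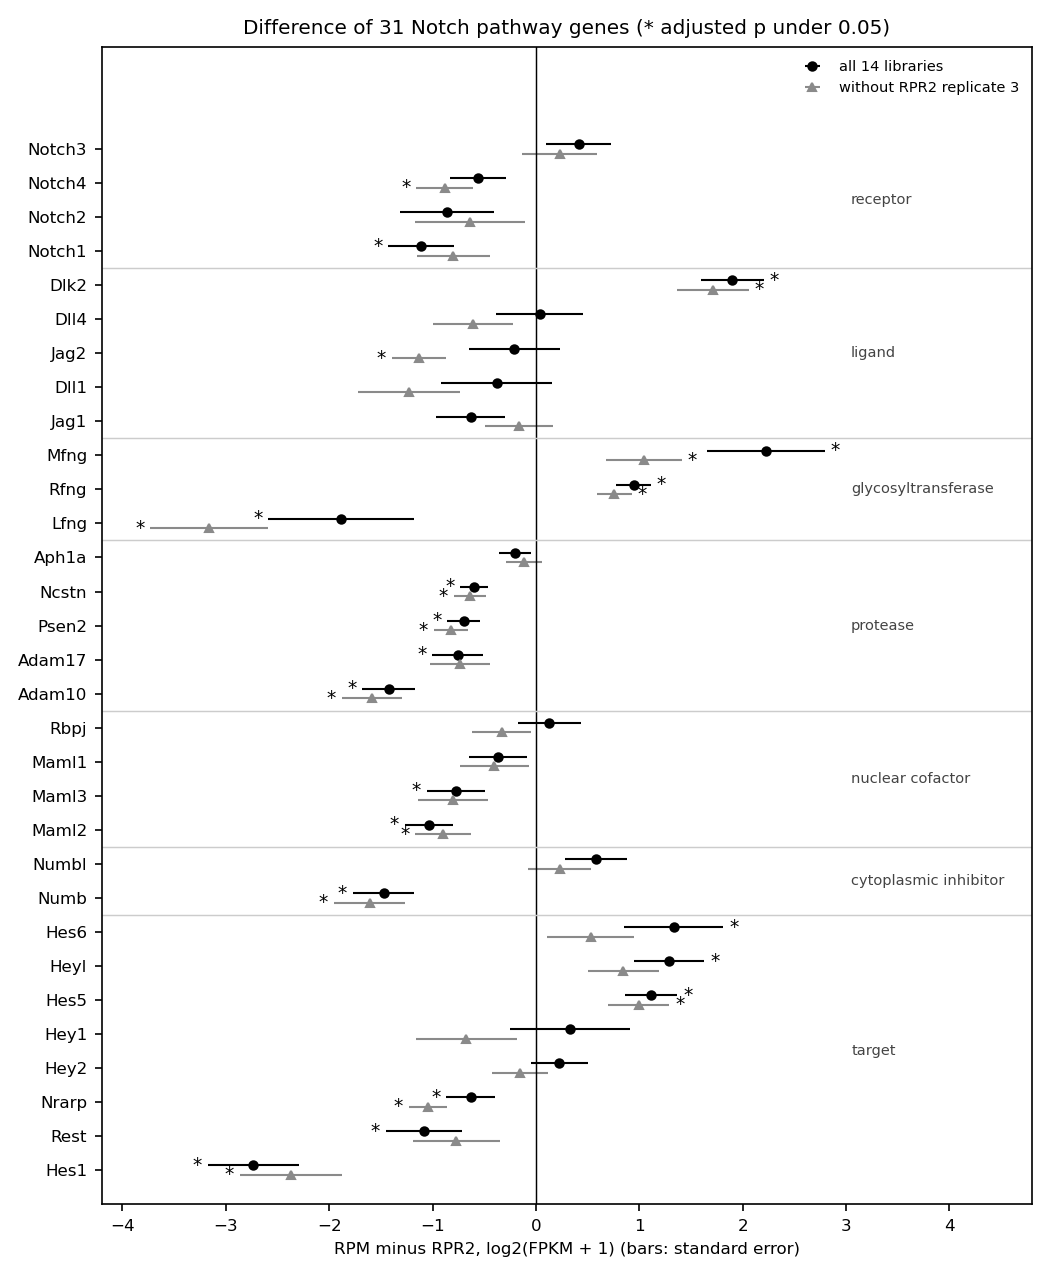
RPM minus RPR2 in log2(FPKM + 1) with its standard error for the 31 genes tested, grouped by role, with all 14 libraries (black circles) and without RPR2 replicate 3 (grey triangles). Asterisks mark a limma adjusted p under 0.05. Hes1 (-2.73) and Mfng (2.23) are the ends of the black series, and Jag2, Dll1 and Lfng shift to the left without that replicate.

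Promoters were searched for TGGGAA, the core of the RBPJ motif, on both strands in RefSeq windows from 250 bases before to 50 after a start (GRCm38.p6). RefSeq windows were found for 27 of the 32 genes, and not for Heyl, Hes1, Mfng, Rest and Hey1. These genes have 35 windows, of which 10 (28.6%) held at least 1 match, where 25.56% of all 32851 promoter windows did. The 10 belong to 9 genes, Aph1a, Hes5, Hes7, Hey2, Lfng, Maml2, Maml3, Psen2 and Rbpj. A window with 2 or more matches was found for Hes5, Hey2, Lfng and Rbpj (4 of 35 windows), where 3.79% of all windows held as many. The longer form GTGGGAA, which contains TGGGAA and was searched after these matches had been seen, stood in 6.383% of all windows and more than once in 0.2557%, among them Hes5 and Hey2. Hes5 and Lfng are shown because both held a pair of matches and were called in opposite directions, higher in RPM for Hes5 and lower for Lfng. The stretches run from 250 to 41 bases before the start, 5′ to 3′ on the gene's strand, with matches to TGGGAA or its reverse complement in capitals.
Hes5, chr4:154960673-154960882, plus strand: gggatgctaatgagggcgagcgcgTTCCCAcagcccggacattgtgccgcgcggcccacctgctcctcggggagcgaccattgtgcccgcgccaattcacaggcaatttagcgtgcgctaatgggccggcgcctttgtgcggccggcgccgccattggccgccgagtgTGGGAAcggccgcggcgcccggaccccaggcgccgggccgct
Lfng, chr5:140607091-140607300, plus strand: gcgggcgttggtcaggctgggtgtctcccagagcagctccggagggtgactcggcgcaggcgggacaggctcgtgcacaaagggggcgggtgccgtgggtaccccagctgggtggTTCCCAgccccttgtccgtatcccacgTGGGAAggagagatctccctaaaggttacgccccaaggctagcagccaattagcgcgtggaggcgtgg
In Hes5 the matches begin 226 and 82 bases before the start, and in Lfng 135 and 108 bases before it, and in each the first match is on the opposite strand to the second. These matches describe the letters of the window and say nothing of binding, which was not measured.

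A second list held 42 further genes of the pathway, in receptor processing, ubiquitin ligation, co-repression or co-activation, and non-canonical ligands. All 42 were tested, 4 were higher and 15 lower in RPM, and their median difference was -0.33, against -0.06 over all genes. That is 9.52% higher and 35.7% lower, where 18.4% and 22.8% of all genes were. Without RPR2 replicate 3 the counts were again 4 and 15 (16.4% and 27.4% of all genes in that fit), with a median of -0.54. Without RPR2 replicate 1 the lower count was 7 of 42, where 2540 of all 15312 genes were lower. Without RPR2 replicate 2 it was also 7, where 2360 of all 15292 were, so both counts lay near the share of all genes. Those higher were Kat2a, Hdac2, Poglut1 and Dtx3. Kat2a, a histone acetyltransferase, was at 33.1 to 50.0 FPKM in RPM, against 15.7, 14.2 and 14.9 in RPR2, without overlap (1.48 ± 0.14, limma adjusted p = 1.58e-06). Hdac2, a histone deacetylase, was at 137 to 225 FPKM in RPM, against 94.5, 81.6 and 94.0 in RPR2, and Dtx3, a Deltex gene, at 40.3 to 75.1 against 29.8, 36.6 and 35.1. Neither overlapped. Poglut1, which adds glucose to the receptor's EGF repeats, was at 20.5 to 35.3 FPKM in RPM, overlapping RPR2 at its lowest tumour (20.7, 20.2 and 10.4).

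Among those lower, the 4 with the smallest p were Dtx3l, Tle1, Tle2 and Cir1. Dtx3l, a Deltex ubiquitin ligase, was at 0.29, 1.06 and 2.17 FPKM in RPM (lowest, median and highest), against 12.8, 12.1 and 5.55 in RPR2 (-2.36 ± 0.29, limma adjusted p = 1.91e-05). Tle1, a Groucho co-repressor that Hes proteins recruit, was at 8.61 to 17.7 FPKM in RPM, against 40.4, 42.3 and 25.0 in RPR2 (-1.35 ± 0.20, adjusted p = 0.000105). Neither overlapped between the models. Tle2 ranged from 2.69 to 9.29 FPKM in RPM, against 7.25, 20.2 and 49.5 in RPR2, and Cir1, a co-repressor that binds RBPJ, was at 7.22 to 13.1 in RPM, against 16.5, 15.6 and 21.7 in RPR2.

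REST silences neuronal genes, and a list of 20 neuronal genes known to carry REST sites was read beside Rest itself. In RPM 7 of the 20 (35%) were higher and 0 lower by limma, against 18.4% and 22.8% of all genes, with a median difference of 0.93. Without RPR2 replicate 3, which had the lowest neuroendocrine sum and the highest Rest of all 14 libraries, 3 were higher (15%) and 4 lower (20%), near the 16.4% and 27.4% of all genes in that fit, and the median was -0.52. Lower in that fit were Chga (-2.87, limma adjusted p = 0.00117) and Snap25 (-1.79, limma adjusted p = 0.00837). So were Celf4 (-1.33, limma adjusted p = 0.0172) and Kcnh7 (-0.97, limma adjusted p = 0.0369). With only RPM replicate 3 left out, 4 of the 20 were higher, where 2717 of all 15621 genes were. With LSL/LSL tumours alone as the RPM group 3 were, where 2907 of all 15542 genes were. Both counts lay near the share of all genes. Cplx1, a regulator of vesicle release, was at 18.0 to 225 FPKM in RPM, against 0.34, 0.17 and 0.12 in RPR2, without overlap (6.47 ± 0.49, limma adjusted p = 2.88e-07). No RPR2 library reached 1 FPKM, so Cplx1 passed the filter for testing through RPM alone. The neuronal tubulin Tubb3 was at 23.5 to 333 FPKM in RPM against 5.99, 1.64 and 0.27, and the neurofilament gene Nefl at 2.23 to 28.9 against 3.46, 0.34 and 0. Syt4, a synaptotagmin gene, was at 4.49 to 51.0 FPKM in RPM, against 18.0, 10.4 and 0.01 in RPR2, and its call was lost without RPR2 replicate 3 (adjusted p = 0.258).

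Across the 11 RPM tumours, 4 Notch genes were compared with the mean log2 level of the 9 neuroendocrine markers and 5 with that of the 8 endothelial markers, 9 relations in all. Hes1 was lower where the neuroendocrine mean was higher (r = -0.90, permutation p = 0.00024, adjusted over the 9 relations 0.00216; rho = -0.80, permutation p = 0.00454, adjusted 0.0238). The same held for Rest (r = -0.89, permutation p = 0.00063, adjusted 0.00284; rho = -0.80, p = 0.00529, adjusted 0.0238). The markers Chga, Chgb, Syp and Snap25 are also in the list of genes with REST sites, so Rest was compared in part with such genes. Notch2 (r = -0.81, permutation p = 0.00277, adjusted 0.00831; rho = -0.73, p = 0.0142, adjusted 0.0319) and Jag1 (r = -0.72, permutation p = 0.00975, adjusted 0.0219; rho = -0.74, p = 0.0125, adjusted 0.0319) ran the same way. By the adjusted p these relations rest on RPM replicates 1 and 5, the tumours farthest from the median neuroendocrine mean. Without them r kept its sign, at -0.78 for Hes1, -0.62 for Notch2, -0.60 for Rest and -0.54 for Jag1, and none passed after adjustment (permutation adjusted p = 0.112, 0.156, 0.156 and 0.199). With 1 tumour for each shared title stem none of the 4 passed by rho (permutation adjusted p = 0.0518 for Hes1 and Rest, 0.0828 for Notch2 and 0.155 for Jag1). By r Jag1 alone of the 4 did not pass in that setting (permutation adjusted p = 0.0582). RPM replicate 5 had the lowest neuroendocrine sum in RPM (201 FPKM) and carried 626 FPKM of alveolar type 2 markers and 1522 FPKM of airway club markers, the highest club sum in RPM. RPM replicates 1, 9, 10 and 11 carried 481, 460, 501 and 826 FPKM of alveolar type 2 markers. Their neuroendocrine sums were 591, 869, 1061 and 916 FPKM, with Hes1 at 7.05, 3.81, 4.03 and 3.48 FPKM. The part of lung markers in these relations was not tested. RPM replicate 5 was also the RPM tumour with the highest level in 12 of the 32 Notch genes, a count not made over all genes.

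**Figure D4:**
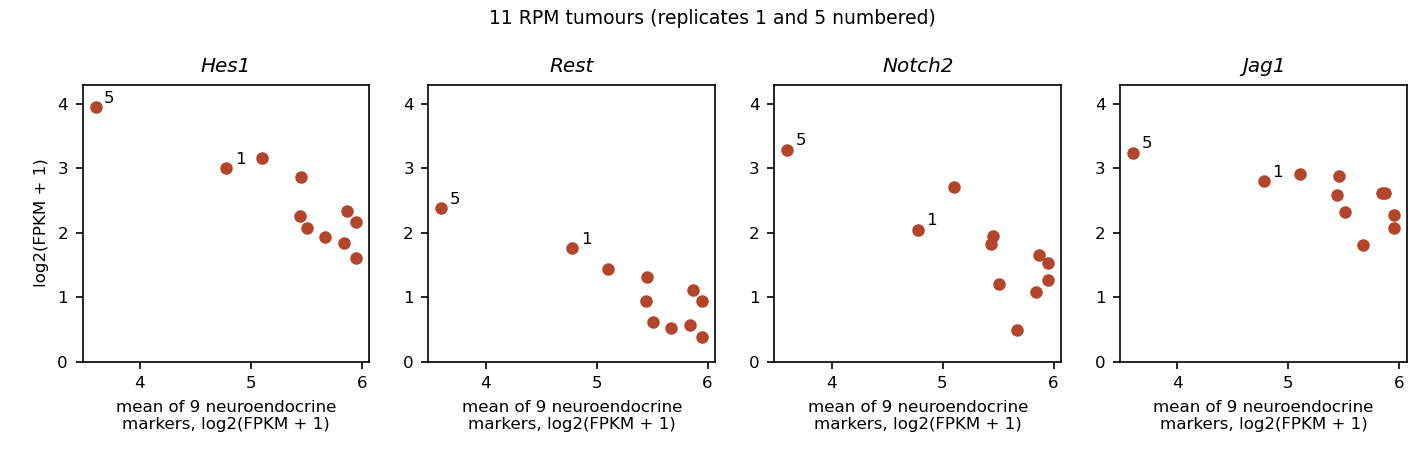
Hes1, Rest, Notch2 and Jag1, as log2(FPKM + 1), against the mean log2(FPKM + 1) of 9 neuroendocrine markers in the 11 RPM tumours, with replicates 1 and 5 numbered. Replicate 5 lies at the low end of the marker mean (3.60) with the highest value of each gene.

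The endothelial relations did not pass. Pearson's r was 0.53 for Notch3 (permutation p = 0.0883, adjusted 0.159; rho = 0.54), 0.44 for Notch4 (permutation p = 0.169, adjusted 0.223; rho = 0.50) and 0.42 for Dll4 (permutation p = 0.210, adjusted 0.237; rho = 0.40). Heyl gave 0.44 (permutation p = 0.174, adjusted 0.223; rho = 0.30) and Hey1 0.24 (permutation p = 0.475, adjusted 0.475; rho = 0.25). The permutation p of rho was 0.0937, 0.124, 0.227, 0.370 and 0.468 in that order (adjusted 0.169, 0.186, 0.292, 0.416 and 0.468). Without RPM replicates 5 and 11, which had the highest endothelial means, r was 0.67, 0.41, 0.59, 0.42 and -0.02 in the same order. With 1 tumour for each shared title stem the Notch3 relation passed by r (0.73, permutation adjusted p = 0.0321) and not by rho (0.82, permutation adjusted p = 0.0518). After TPM scaling it likewise passed by r (0.67, permutation adjusted p = 0.04995) and not by rho (0.52, permutation adjusted p = 0.215).

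Within RPM, LSL/LSL tumours (n = 9) were compared with LSL/+ tumours (n = 2). No Notch gene was called, where limma called 0 of 14862 genes as higher and 1 (0.00673%) as lower, and the lowest adjusted p of a Notch gene was 0.233. At an unadjusted limma p under 0.05 stood 11 of the 31 genes tested (35.5%), against 2569 of all genes (17.3%). The difference was positive in 26 of the 31 (83.9%) and negative in 5, where it was positive in 63.2% of all genes tested, with a median of 0.55, against 0.16 over all genes. With median-of-ratios scaling 22 were positive, with medians of 0.37 and -0.01. Maml1 was at 3.03 to 6.69 FPKM in LSL/LSL tumours, against 1.55 and 2.88 in LSL/+ tumours, without overlap (0.87 ± 0.26, adjusted p = 0.233). Jag1 was at 3.85 to 8.47 FPKM in LSL/LSL tumours, against 2.50 and 3.19 in LSL/+ tumours (0.76 ± 0.24, adjusted p = 0.240), likewise without overlap. RPM replicate 2, an LSL/+ tumour, was the lowest RPM library in 17 of the 32 Notch genes, and the other LSL/+ tumour, replicate 4, in 5. The same count was not made over all genes, so these counts cannot be read as particular to the Notch genes. RPM replicate 2 also had the fewest genes at 1 FPKM or more, 12994. Its FPKM sum, 939971, was the largest in RPM, where the smallest was 599119. Without it the median difference of the Notch genes was 0.32, against 0.05 over all genes.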

How the data were processed

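The values are FPKM per gene and library, as the authors deposited them. Bowtie 1.0.1, RSEM 1.2.12 and the mm10 build are listed in the submitters' processing notes, with no settings. Per the labels' protocols, libraries were stranded and poly(A)-selected, and sequenced from single ends of fresh or frozen tumours. A reporter row listed at 0 in all 14 libraries was left out. FPKM keeps no counts, so depth was estimated from the steps of low values in short genes with 1 transcript, and no count model was fitted. At that depth 3 reads on a 2 kb gene equal 0.0746 to 0.0862 FPKM in RPM libraries, and 0.0649 to 0.0704 in RPR2 libraries, which covers counting error alone.

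Values were tested as log2(FPKM + 1), which understates changes of low genes, with limma 3.58.1 in R 4.3.3 (empirical Bayes with trend, Benjamini-Hochberg over all genes tested, threshold 0.05). Genes needed 1 FPKM or more in 3 or more libraries, a filter that a gene can pass through its higher group alone. The test was checked on simulated data, with noise drawn independently for each library. Groups come from the genotype labels and source names. Replicates are numbered in accession order, and nothing in the sources used here states that each tumour came from its own mouse, so p-values measure the spread between these tumours. The main fits treat tumours that share a title stem as independent. With title stem as a random effect the correlation within a stem was 0.76, and 0.64 in the fit of LSL/LSL against LSL/+. Relations used 100000 two-sided permutations. Gene coordinates follow the GENCODE annotation of GRCm38, the assembly of mm10, and promoter sequences are RefSeq's on GRCm38.p6.

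The members and lists were chosen with earlier results of these data known. All members are named. Of the other pathway genes and the genes with REST sites, up to 4 per direction with the smallest p among those called are named. The genes with REST sites called lower without RPR2 replicate 3 are named too. Alternatives were pseudocounts, filters, TPM, median-of-ratios and quantile scaling, array weights, title stem as a random effect, LSL/LSL tumours alone and each library left out.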

Additional observations from a re-analysis of the deposited data

Results flagged for a closer look

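In the 9 LSL/LSL tumours, each of the 32 Notch genes was checked for a single tumour set far from the others by Dixon's ratio (critical value 0.493). Chance exceeds that value in about 1 in 20 groups of independent, normally distributed values. The check used FPKM without logs and treated tumours that share a title stem as independent, so that rate need not hold here. The ratio passed for 6 genes. RPM replicate 5 stood above the rest for Notch1 (4.82 FPKM) and Hes1 (14.5 FPKM). RPM replicate 6 stood above for Numbl (15.64 FPKM) and Hes5 (3.62 FPKM). RPM replicate 9 stood above for Dll4 (29.35 FPKM), and RPM replicate 1 for Hey2 (2.42 FPKM).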

How the results depend on the processing

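Of the 18 Notch genes called between RPM and RPR2, 9 (Dlk2, Mfng, Rfng, Adam10, Ncstn, Maml2, Numb, Hes1 and Hes5) were called in every alternative in which they were tested, and 0 of the 18 reversed. The same counts were not made over all genes, so they cannot be read as particular to the Notch genes. Of the 31 Notch genes tested, 7 were lower with quantile normalization and 19 with array weights, where 3066 and 6577 of all 15719 genes were. With title stem as a random effect 9 Notch genes were lower, where 3293 of all 15719 genes were, and the calls of Maml3, Nrarp and Rest were lost. Over all genes, 1878 were higher and 3588 lower with TPM scaling, against 2897 and 3586, and the median difference was -0.23, against -0.06. The genes lower were 2171 at a mean FPKM of at least 5, 6577 with array weights and 2360 to 4227 with each library left out. Other pathway genes higher were 2 with TPM scaling, 7 with median-of-ratios scaling and 9 with array weights, where 1878, 3360 and 4290 of all 15719 genes were. Those lower were 7 to 15 with each library left out. Genes with REST sites higher were 4 without a filter, 3 with TPM scaling and 3 with LSL/LSL tumours alone. Of all genes 2657 of 30808, 1878 of 15719 and 2907 of 15542 were higher in those fits. With each library left out, 3 to 7 genes with REST sites were higher and 0 to 4 lower. With array weights 7 were lower, where 6577 of all 15719 genes were. Dll4 turned to -0.15 with TPM scaling and -0.66 with array weights (limma adjusted p = 0.0217), Rbpj to -0.0621 and -0.20, and Hey1 to -0.65 with array weights. With each library left out Dll1 ran from -1.23 to 0.0694, Dll4 from -0.61 to 0.46, Jag2 from -1.13 to 0.28, Jag1 from -1.09 to -0.16, Numbl from 0.23 to 0.85, Rbpj from -0.33 to 0.37, Hey1 from -0.67 to 0.87 and Hey2 from -0.15 to 0.58.

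For LSL/LSL against LSL/+, genes higher were 4 at a pseudocount of 0.1 and 0 to 6 with each library left out, and genes lower were 30 without a filter, 0 with TPM scaling, 0 with all 14 libraries in the fit and 0 to 1 with each left out. Signs turned with TPM scaling for Rfng (0.15), Psen2 (0.22) and Nrarp (0.0446), and with median-of-ratios scaling for Ncstn (-0.0703), Aph1a (-0.0264), Numbl (-0.0858) and Hes5 (-0.0163). With each library left out Jag2 ran from -0.34 to 0.84, Mfng from -0.84 to 0.15, Rfng from -0.21 to 0.00434, Psen2 from -0.14 to 0.12, Ncstn from -0.18 to 0.44, Numbl from -0.0296 to 0.19, Hes5 from -0.0910 to 0.32 and Hes6 from -0.48 to 1.30. The relation of Hey1 with the endothelial mean turned to -0.0205 without the 2 tumours farthest from the median. With TPM scaling none of the 4 neuroendocrine relations passed by rho, and by r those of Notch2 (-0.57) and Jag1 (-0.34) did not. The cause of these changes was not tested. No paired analysis was possible because the labels give no replicate numbers shared by the groups.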
